A study of Mus musculus with 9 samples.

Results

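Hearts labelled Kmo+Ang II were compared with hearts labelled Ang II across all genes. The comparison uses 6 of the 9 RNA sequencing libraries of the series, 3 in each group, and the groups are written here as Kmo_AngII and AngII. The libraries were chosen by the description that the submitters gave each sample. Both groups came from C57BL/6 mice, an inbred laboratory strain, and both carry the treatment label Ang II, for angiotensin II. The remaining 3 libraries, Ctrl, came from C57BL/6 mice given PBS, a salt buffer, and their values are given beside the others. The labels do not explain the word Kmo, and they give no dose, duration, route, age or sex. The sample titles begin with the letters KKA in all 3 Kmo_AngII libraries and in no other, so whatever these letters stand for cannot be told apart from the Kmo label. Titles of the AngII libraries begin with WC in replicates 1 and 2 and with WA in replicate 3. Nothing in the labels says whether replicates are different animals. A p-value here thus sets a difference only against the spread among the samples of this series, and that spread may be technical. In whole heart tissue, fewer cells of a type and less RNA per cell cannot be told apart.

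Angiotensin II acts mainly through its type 1 receptor, constricts blood vessels and raises blood pressure. In the heart, prolonged angiotensin II is known for enlargement of the muscle cells, deposition of collagen and entry of leukocytes, among them monocytes and T cells. Kmo is also the symbol of kynurenine monooxygenase, a flavin enzyme of the outer mitochondrial membrane that hydroxylates the tryptophan product kynurenine. Antigen-presenting cells display peptides to helper T cells on class II molecules of the major histocompatibility complex (MHC), whose loading needs the invariant chain Cd74 and the protease cathepsin S.

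Libraries held between 56827533 and 73194268 counts, and 19091 of 55401 genes passed the filter on low counts and were tested. Levels are given in CPM, counts scaled to a fixed total with edgeR's TMM factors, and listed in the order of replicates 1, 2 and 3. The largest source of variation, a principal component that held 30.4% of the variance, put Kmo_AngII replicate 1 on the side of AngII replicate 3. It put Kmo_AngII replicates 2 and 3 on the side of AngII replicates 1 and 2. Ctrl replicate 1, titled WC, lay with AngII replicates 1 and 2, and Ctrl replicates 2 and 3, titled WA, with AngII replicate 3. All libraries titled WC thus lay on 1 side and all titled WA on the other. Among all 36 pairs of the 9 libraries, AngII replicate 2 and Kmo_AngII replicate 2 were the closest by counts, and no pair was within counting noise. Replicates of Kmo_AngII also varied more than those of AngII. The median standard deviation of a gene's log2 CPM was 0.49 in Kmo_AngII, 0.37 in AngII and 0.39 in Ctrl, and 66.3% of tested genes varied more in Kmo_AngII than in AngII. Kmo_AngII replicate 3 stood apart most in its markers of atrial muscle, epicardium and fat, and less far in several other lists, all described further on. Results that rest on it are given with and without it. Markers of ventricular muscle cells summed to between 22651 CPM in Kmo_AngII replicate 3 and 67108 CPM in Ctrl replicate 3, so the labelled tissue was present in all libraries.

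No gene differed between Kmo_AngII and AngII past an adjusted p of 0.05. The share called by edgeR's quasi-likelihood test with Benjamini-Hochberg adjustment was 0%, with no adjusted p under 0.9998. By DESeq2's Wald test 3 genes were called, 0.0158% of those it gave an adjusted p, all of them transcripts without an established name. An unadjusted p under 0.05 was reached by 412 genes, or 2.16% of those tested. That is below the share of 0.05 that such a threshold passes where no gene differs. Of the 412, 294 (1.54%) were higher in Kmo_AngII and 118 (0.618%) were lower. Separation of the groups was counted as well: in 615 genes (3.22%) all 3 Kmo_AngII libraries lay above all 3 AngII libraries, and in 562 genes (2.94%) all 3 lay below. The median log2 difference, Kmo_AngII minus AngII, was 0.03 over all tested genes, and 54.5% of the differences were positive. Counts of higher or separated genes in the lists below are to be read beside these shares. Scaling by library size alone moved that median to -0.29 and the numbers of separated genes to 176 above and 2303 below, so a direction below is relative to the bulk of genes. Precision depended on level: the median standard error of a log2 difference was 0.84 for genes under a log2 CPM of 0 and 0.26 for genes between 3 and 6. For 8370 genes, 43.8% of those tested, the 95% interval of the difference lay within -1 and 1, that is, within a doubling or a halving. For the other genes the interval reached past a doubling or a halving.

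**Figure D1:**
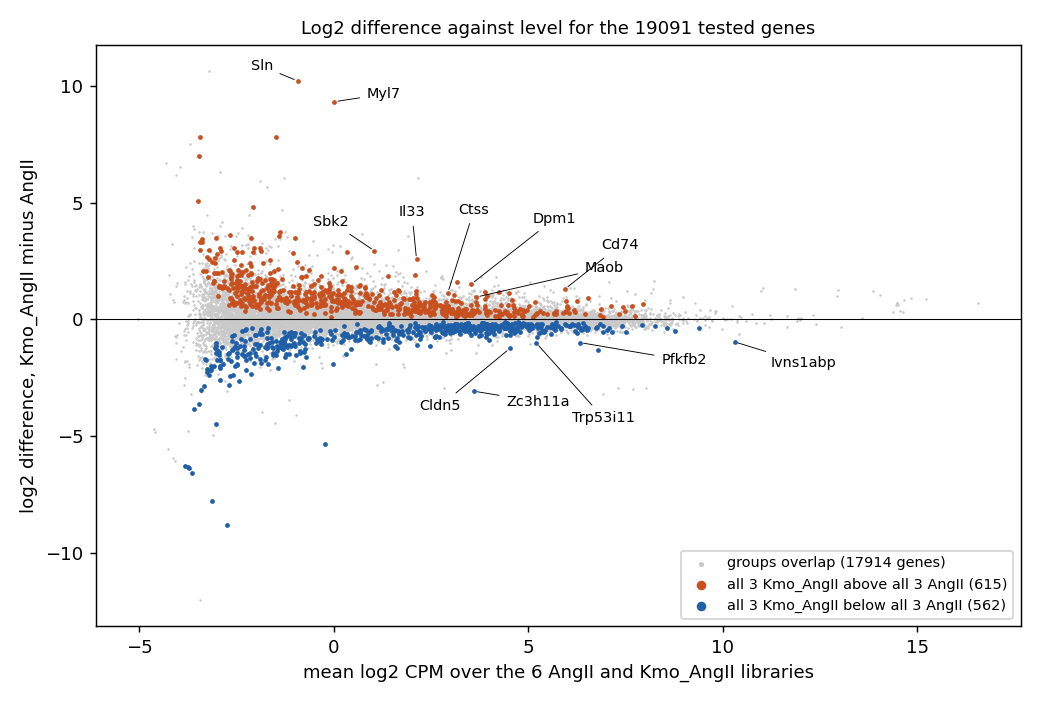
Log2 difference between Kmo_AngII and AngII (vertical axis) against the mean log2 CPM of the 6 libraries (horizontal axis), 1 point per tested gene. Orange points are the 615 genes with all 3 Kmo_AngII libraries above all 3 AngII libraries, blue points the 562 genes with all 3 below, and grey points the genes whose groups overlap; the widest differences lie among genes with low levels.

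The 10 smallest p-values among separated genes with a mean log2 CPM of at least 1 included those of Cd74 and Ctss, which both act in class II antigen presentation. Cd74, the invariant chain, stood at 23.2, 55.4 and 44.7 CPM in AngII and at 110, 70.8 and 124 CPM in Kmo_AngII, against 84.8, 57.2 and 79.6 CPM in Ctrl. Ctss, which encodes cathepsin S, stood at 5.17, 3.77 and 6.82 CPM in AngII and at 9.45, 10.4 and 14.8 CPM in Kmo_AngII. Both genes were chosen among separated genes, so their lack of overlap between Kmo_AngII and AngII is part of the choice. The Ctrl libraries of Cd74 also lay above all AngII libraries. The log2 difference of Cd74 was 1.31 (SE 0.35, 95% interval 0.53 to 2.09, n = 3 against 3), with an unadjusted p of 0.00387 in edgeR. That of Ctss was 1.14 (SE 0.28, interval 0.51 to 1.76), with an unadjusted p of 0.00235 in edgeR. Neither passed after adjustment over all genes. Leaving out any single AngII or Kmo_AngII library kept Cd74 between 1.02 and 1.58 and Ctss between 0.92 and 1.37. The kept sign follows from the choice of separated genes.

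Class II chains themselves were higher on average but overlapped. H2-Aa, an alpha chain, measured 10.5, 20.2 and 25.2 CPM in AngII and 60.9, 23.6 and 36.7 CPM in Kmo_AngII. H2-Ab1, its beta chain partner, measured 8.56, 20.3 and 17.7 CPM in AngII and 43.3, 18.6 and 42.6 CPM in Kmo_AngII. H2-Eb1, another beta chain, measured 9.56, 13.9 and 21.6 CPM in AngII and 48.0, 18.9 and 27.1 CPM in Kmo_AngII. For all 3 genes, Kmo_AngII replicates 1 and 3 were high and replicate 2 lay within or near the AngII values. Their log2 differences were 1.12 (SE 0.39), 1.17 (SE 0.38) and 1.06 (SE 0.41), and without Kmo_AngII replicate 1 they were 0.69, 0.98 and 0.61. Ciita, the coactivator that switches on class II genes, was likewise higher in Kmo_AngII replicates 1 and 3 only, with 0.742, 1.23 and 1.05 CPM in AngII and 2.23, 0.823 and 2.49 CPM in Kmo_AngII. In Ctrl, H2-Aa stood at 32.5, 24.5 and 31.5 CPM, so that replicates 1 and 3 lay above all AngII libraries. Over the list of 15 tested dendritic cell and class II genes, 12 had a positive log2 difference, beside 54.5% of all tested genes. The median was 0.66 beside 0.03 for all genes. In that list 1 gene was separated upwards and 1 downwards, beside 3.22% and 2.94% of all genes. Separated downwards was Zbtb46, a transcription factor of classical dendritic cells that is also found in endothelium, at 35.4, 35.0 and 29.9 CPM in AngII and 21.2, 26.5 and 22.1 CPM in Kmo_AngII. Xcr1, the chemokine receptor of cross-presenting dendritic cells, had a log2 difference of 2.97 (SE 0.88), yet Kmo_AngII replicate 3, at 0.138 CPM, lay within the AngII range of 0.0594 to 0.210 CPM. Without Kmo_AngII replicate 3 the list median was 0.39.

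The promoters of 2 class II chains are shown because these genes had the same order of libraries, and because class II promoters are known to hold an inverted CCAAT element, the Y box. Each sequence is the 250 bases before the RefSeq start of the gene, read 5′ to 3′ on the gene's strand, in build GRCm38.p6. Capitals mark every match to CCAAT on either strand, which reads ATTGG where it is inverted. H2-Aa lies at chr17:34287824-34288073 on the minus strand and H2-Eb1 at chr17:34305617-34305866 on the plus strand.
H2-Aa: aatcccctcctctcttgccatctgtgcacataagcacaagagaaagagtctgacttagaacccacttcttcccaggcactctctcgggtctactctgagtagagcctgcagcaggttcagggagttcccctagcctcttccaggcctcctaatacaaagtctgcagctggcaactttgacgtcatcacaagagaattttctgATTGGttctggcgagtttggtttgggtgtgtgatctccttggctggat
H2-Eb1: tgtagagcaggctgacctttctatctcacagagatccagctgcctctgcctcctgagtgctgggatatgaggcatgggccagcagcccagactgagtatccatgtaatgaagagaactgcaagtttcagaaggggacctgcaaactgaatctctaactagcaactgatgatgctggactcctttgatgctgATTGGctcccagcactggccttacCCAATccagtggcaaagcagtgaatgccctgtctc
H2-Aa holds 1 match, inverted, which begins 48 bases before the start, and H2-Eb1 holds 2 matches. CCAAT occurs on either strand in 33.8% of the 32851 promoters of the same length. A match describes these letters only.

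T and natural killer (NK) cell markers were higher on average in each of the 3 Kmo_AngII libraries. Of 22 tested markers, 21 had a positive log2 difference, 6 were separated upwards and 0 downwards, and the median was 1.0. Over all tested genes, 54.5% were positive, 3.22% were separated upwards and 2.94% downwards. Cd8a and Cd8b1 encode the chains of the CD8 coreceptor of cytotoxic T cells. Cd8a stood at 0.553, 1.20 and 0.136 CPM in AngII and at 2.87, 2.70 and 2.31 CPM in Kmo_AngII, with Ctrl at 0.726, 0 and 0.469 CPM. Cd8b1 stood at 0.106, 0.163 and 0.186 CPM in AngII and at 0.597, 0.564 and 0.750 CPM in Kmo_AngII, with Ctrl at 0.478, 0.334 and 0.330 CPM. All 3 Kmo_AngII libraries exceeded every AngII and Ctrl library in both genes. The log2 difference was 2.06 for Cd8a (SE 0.98, interval -0.12 to 4.24) and also 2.06 for Cd8b1 (SE 0.53, interval 0.88 to 3.23). The unadjusted p was 0.0618 for Cd8a and 0.00291 for Cd8b1 in edgeR, and neither passed after adjustment. Lck, the kinase that docks on CD8 and CD4, measured 0.600, 1.38 and 0.470 CPM in AngII and 1.53, 1.86 and 1.64 CPM in Kmo_AngII. Ccl5, a chemokine released by activated T cells, measured 0.942, 1.13 and 0.384 CPM in AngII and 2.63, 2.81 and 1.22 CPM in Kmo_AngII. Both genes were separated, by narrow margins between AngII replicate 2 and the lowest Kmo_AngII library. The other separated markers were Cd3d, a chain of the T cell receptor complex, and Cd28, the costimulatory receptor of T cells. Cd28 stood at 2.13, 2.33 and 1.40 CPM in AngII and at 3.31, 3.08 and 2.54 CPM in Kmo_AngII, a log2 difference of 0.61 (SE 0.33). Averaged over the list and centred gene by gene, the level was 0.85, 0.90 and 0.56 log2 units in Kmo_AngII, -0.43, 0.31 and -0.66 in AngII and 0.39, -1.24 and -0.68 in Ctrl. Thus Ctrl replicate 1 lay above AngII, and the Kmo_AngII libraries lay above both groups. This list and the dendritic and class II list were the only 2 of 42 lists whose averaged level did not overlap between Kmo_AngII and AngII, both upwards. Single genes were separated upwards in 3.22% and downwards in 2.94% of cases, so 2 of 42 lists is near what single genes show. For the dendritic and class II list, Ctrl replicate 1, at 0.52, lay above all Kmo_AngII libraries, at 0.29, -0.03 and 0.49. Leaving out any AngII or Kmo_AngII library kept the T and NK median between 0.76 and 1.55. These transcripts were scarce, so each level rests on few counts relative to those of muscle genes.

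**Figure D2:**
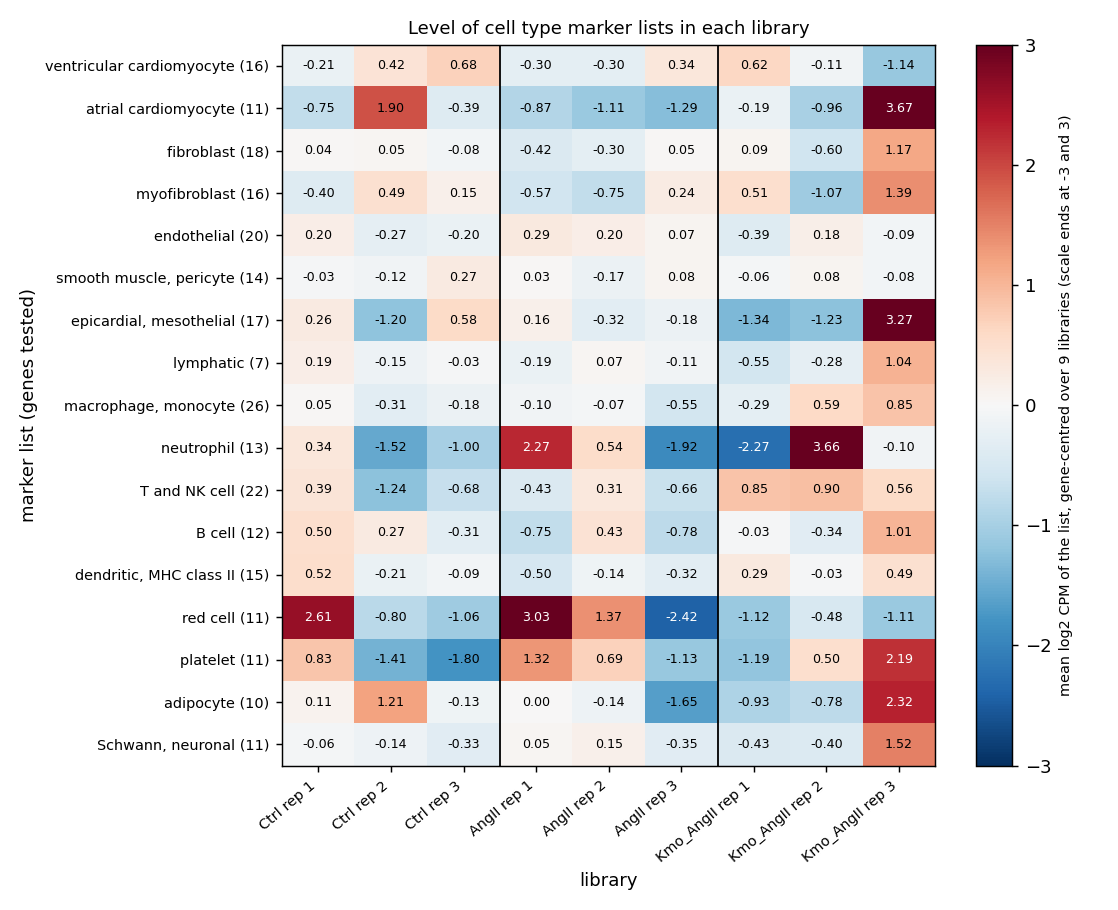
Mean log2 CPM of each cell type marker list in each of the 9 libraries, centred gene by gene over the libraries, with the value printed in each cell and the number of tested genes in brackets. The T and NK cell row is positive in all 3 Kmo_AngII libraries (0.85, 0.90 and 0.56), whereas the atrial and epicardial rows reach 3.67 and 3.27 in Kmo_AngII replicate 3 only.

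Macrophage and monocyte markers were higher in 25 of 26 tested genes, with a median of 0.74. Separated upwards were 5 and downwards 0, beside 3.22% and 2.94% of all tested genes. Ccr2, the receptor that draws monocytes out of the blood, stood at 5.51, 4.53 and 2.38 CPM in AngII and at 8.59, 7.68 and 9.39 CPM in Kmo_AngII. Ms4a7, a membrane protein of macrophages, stood at 1.32, 1.59 and 1.68 CPM in AngII and at 2.40, 5.67 and 2.998 CPM in Kmo_AngII. Aif1, an actin-binding protein of macrophages, stood at 0.789, 1.28 and 0.879 CPM in AngII and at 2.68, 1.52 and 3.71 CPM in Kmo_AngII. In these 3 genes every Kmo_AngII library was above every AngII library. Ccr2 differed by 1.05 (SE 0.33), Ms4a7 by 1.27 (SE 0.35) and Aif1 by 1.42 (SE 0.43) on the log2 scale. Adgre1, the macrophage surface marker F4/80, and Fcgr1, a high-affinity receptor for antibody, were separated as well, by log2 differences of 0.84 (SE 0.34) and 0.61 (SE 0.33). C1qa, Cd68 and Lyz2 overlapped, as Kmo_AngII replicate 1 stayed at the AngII level. C1qa, a chain of the complement component C1q, was at 18.2, 22.4 and 17.3 CPM in AngII and at 22.1, 36.5 and 38.4 CPM in Kmo_AngII. Cd68, a lysosomal glycoprotein, was at 3.73, 5.01 and 3.80 CPM in AngII and at 4.001, 11.98 and 13.3 CPM in Kmo_AngII. Lyz2, lysozyme, was at 88.4, 69.9 and 66.5 CPM in AngII and at 80.3, 150 and 158 CPM in Kmo_AngII. The list median was 1.02 without Kmo_AngII replicate 1 and 0.51 without replicate 3, and 18 of the 26 genes were highest in replicate 3.

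Chemokines, cytokines and their receptors were higher in 25 of 31 tested genes. Of these 31, 7 were separated upwards and 1 downwards, beside 3.22% and 2.94% of all tested genes. The list median of 0.66 became 0.35 without Kmo_AngII replicate 3. Il33, an alarmin of the interleukin 1 family, measured 2.65, 3.05 and 1.68 CPM in AngII and 4.01, 3.34 and 36.6 CPM in Kmo_AngII. Its log2 difference was 2.57 (SE 0.80) with all libraries and 0.58 without Kmo_AngII replicate 3, in which epicardial, atrial and fat markers were high as well. Their part in the Il33 value was not tested. Cxcl14, a chemokine made by stromal cells, measured 7.53, 13.95 and 9.03 CPM in AngII and 19.5, 17.5 and 31.2 CPM in Kmo_AngII, a log2 difference of 1.16 (SE 0.41) that stayed at 0.86 without replicate 3. Ccl8 and Ccl6, monocyte-attracting chemokines, were low in Kmo_AngII replicate 1 and high in replicates 2 and 3. Ccl6 reached 3.62, 19.5 and 30.6 CPM in Kmo_AngII against 9.21, 7.19 and 4.36 CPM in AngII. Tnf, tumour necrosis factor, was separated at low levels, 0.224, 0.193 and 0.334 CPM in AngII and 0.418, 0.595 and 0.454 CPM in Kmo_AngII, and its log2 difference of 0.96 had an SE of 0.72. Cx3cl1, the membrane-bound chemokine fractalkine, was separated by a log2 difference of 0.36 (SE 0.22). The 1 gene of this list separated downwards was Il11, a cytokine of fibroblast activation, under 0.3 CPM in every library. Ccl19, a ligand of the lymph node homing receptor, was separated upwards at low levels, 0.212, 0.0297 and 0.0371 CPM against 0.358, 0.274 and 1.499 CPM. Among leukocyte adhesion genes, 11 of 12 tested were higher, 2 were separated upwards and 1 downwards, and the median was 0.81, or 0.40 without Kmo_AngII replicate 2 and 0.54 without replicate 3. Vcam1, which vessels display to arresting leukocytes, was nearly level in Kmo_AngII replicates 1 and 2 and high in replicate 3, at 13.4, 11.9 and 9.35 CPM in AngII and 14.5, 14.3 and 41.9 CPM in Kmo_AngII. Cd44, a hyaluronan receptor of activated leukocytes, stood at 6.65, 6.42 and 8.14 CPM in AngII and at 8.18, 13.8 and 14.3 CPM in Kmo_AngII. Both were separated, Cd44 only just.

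Other immune lists did not stand apart in the same way. Interferon-stimulated genes were higher in 16 of 31, with 1 separated in each direction and a median of 0.06, close to that of all genes. Within that list Zbp1, a sensor of viral-type nucleic acids, was separated, at 0.918, 2.93 and 2.55 CPM in AngII and 3.46, 3.43 and 7.59 CPM in Kmo_AngII; its log2 difference of 1.18 (SE 0.46) was 0.69 without Kmo_AngII replicate 3. Irf1, a transcription factor of the interferon gamma response, was separated downwards by a small margin, at 34.6, 34.04 and 34.1 CPM in AngII and 29.4, 33.9 and 26.2 CPM in Kmo_AngII. MHC class I and peptide processing genes were higher in 12 of 17, with 3 separated upwards, beside 54.5% and 3.22% of all tested genes. Their median of 0.26 was -0.04 under scaling by library size and between 0.11 without Kmo_AngII replicate 2 and 0.39 without replicate 3. H2-K1, a classical class I heavy chain, stood at 185, 201 and 215 CPM in AngII and at 239, 420 and 283 CPM in Kmo_AngII. Class I heavy chains are near-identical in sequence, so the division of counts among them is uncertain. B cell markers were higher in 9 of 12, with 0 separated and a median of 0.46 that was 0.08 without Kmo_AngII replicate 3, 0.22 without AngII replicate 1 and 1.35 without AngII replicate 2. The antibody genes Igkc and Jchain had log2 differences of 1.85 (SE 0.66) and 2.17 (SE 0.71), with Kmo_AngII replicate 2 inside the AngII range in each. Neutrophil markers followed single libraries. S100a9, a calcium-binding protein abundant in neutrophils, measured 68.5, 9.44 and 2.85 CPM in AngII and 1.505, 129 and 8.80 CPM in Kmo_AngII. All 13 tested neutrophil genes had a positive difference, but 0 were separated, and the median of 0.79 turned to -2.39 without Kmo_AngII replicate 2 and was 2.92 without AngII replicate 1. Gzmm, a granzyme of NK cells that is not on the T and NK list, was lower: it stood at 4.20, 3.46 and 4.69 CPM in AngII and at 2.32, 2.84 and 1.56 CPM in Kmo_AngII, a log2 difference of -0.88 (SE 0.31).

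**Figure D3:**
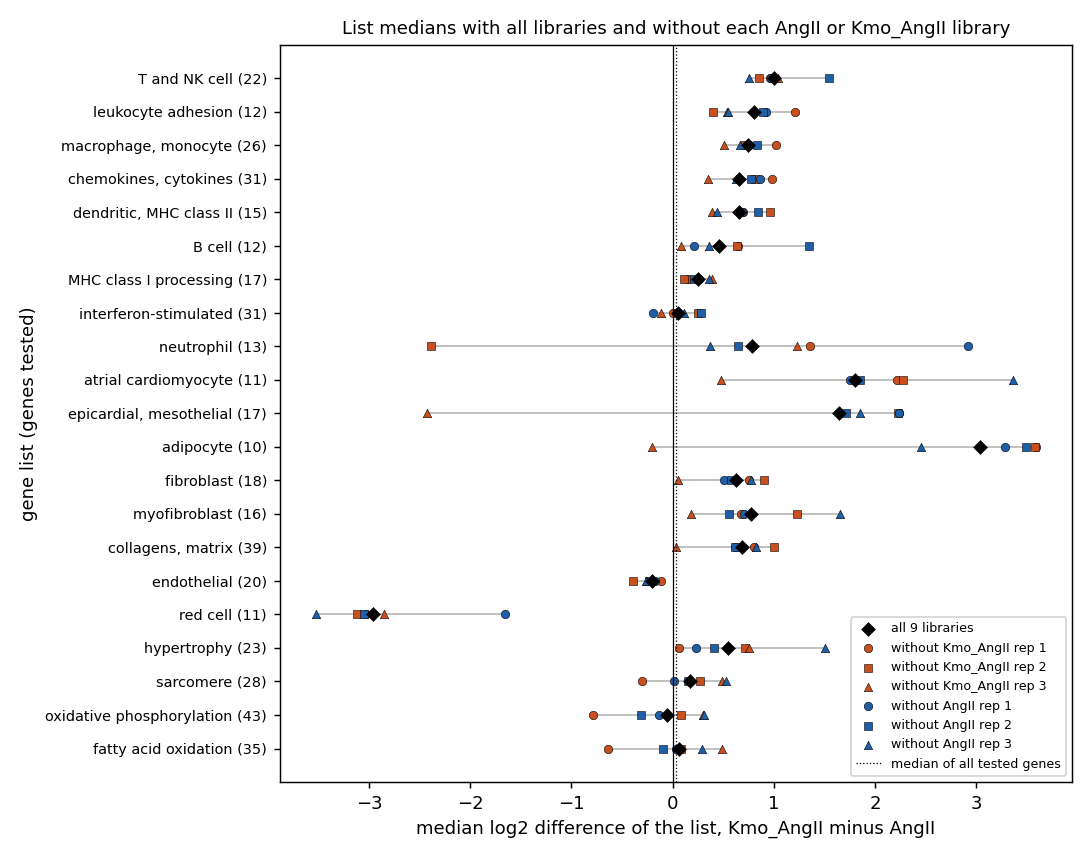
Median log2 difference of gene lists (horizontal axis) with all libraries (black diamonds) and with each Kmo_AngII (orange) or AngII (blue) library left out, 1 row per list; the dotted line is the median of all tested genes, 0.03. T and NK cell medians stay between 0.76 and 1.55, while the epicardial median goes from 1.64 to -2.42 without Kmo_AngII replicate 3 and the neutrophil median from 0.79 to -2.39 without Kmo_AngII replicate 2.

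The genes named next had the 12 highest or 12 lowest log2 differences or the 10 smallest p among the 553 that had a mean log2 CPM of at least 1, an established symbol and no overlap, of which 228 were higher and 325 lower in Kmo_AngII. Of these, 21 were higher and 8 lower by more than 1 on the log2 scale. Dpm1, the catalytic subunit of dolichol-phosphate mannose synthase, stood at 6.03, 8.46 and 6.82 CPM in AngII, 30.2, 17.3 and 13.5 CPM in Kmo_AngII and 14.6, 20.8 and 33.5 CPM in Ctrl. The AngII libraries were the low ones, since all Ctrl and all Kmo_AngII libraries lay above them. Its log2 difference was 1.52 (SE 0.37, interval 0.70 to 2.33), with an unadjusted p of 0.00196 in edgeR. Maob, monoamine oxidase B of the outer mitochondrial membrane, stood at 8.64, 9.09 and 9.66 CPM in AngII, 17.5, 15.0 and 20.8 CPM in Kmo_AngII and 13.8, 19.96 and 25.02 CPM in Ctrl. Its AngII replicates were tight, and again AngII was below both other groups. The log2 difference of Maob was 0.96 (SE 0.24, interval 0.42 to 1.49), and it stayed between 0.83 and 1.06 without any single AngII or Kmo_AngII library. Tgfb2, a ligand of the transforming growth factor beta family, stood at 4.40, 6.91 and 6.69 CPM in AngII, 12.7, 11.4 and 13.1 CPM in Kmo_AngII and 8.41, 14.6 and 15.0 CPM in Ctrl. Tgfb2 had a log2 difference of 1.05 (SE 0.27, interval 0.45 to 1.65) and the same order of groups. Zfp385b, a zinc finger gene, stood at 1.53, 1.74 and 1.32 CPM in AngII, 2.66, 3.81 and 3.10 CPM in Kmo_AngII and 2.87, 4.29 and 4.08 CPM in Ctrl. The comparisons with Ctrl share the AngII libraries, so these values are given side by side only.

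Some of the largest differences rested on Kmo_AngII replicate 3. Sbk2, which encodes a protein kinase, had the highest log2 difference of the 553 genes, 2.94 (SE 0.89). Its levels were 1.35, 0.966 and 0.829 CPM in AngII and 1.95, 1.59 and 20.7 CPM in Kmo_AngII, and the difference was 0.75 without replicate 3. Mmp19, a matrix metalloproteinase, measured 1.20, 1.74 and 1.51 CPM in AngII and 3.13, 3.19 and 9.98 CPM in Kmo_AngII. Slit3, a secreted guidance ligand of Robo receptors, measured 2.40, 2.33 and 1.82 CPM in AngII and 3.44, 3.55 and 8.46 CPM in Kmo_AngII. Replicates 1 and 2 of Kmo_AngII were still above AngII in both genes, and without replicate 3 the differences were 1.09 for Mmp19 and 0.68 for Slit3. Other genes were high in other libraries. Cyp26b1, which breaks down retinoic acid, was at 5.33, 10.9 and 1.88 CPM in AngII and at 31.0, 11.5 and 12.9 CPM in Kmo_AngII, and its log2 difference of 1.61 (SE 0.76) was 0.58 with only AngII replicates 1 and 2 and Kmo_AngII replicates 2 and 3. Plcb2, the phospholipase C of blood cells, was at 2.48, 2.51 and 1.37 CPM in AngII and at 3.05, 6.82 and 5.23 CPM in Kmo_AngII. B3gnt2, a glycosyltransferase that extends lactosamine chains, was at 0.353, 2.23 and 6.14 CPM in AngII and at 11.7, 7.79 and 12.7 CPM in Kmo_AngII. Its spread within AngII was wide, so that its log2 difference of 1.89 had an SE of 0.86.

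**Figure D4:**
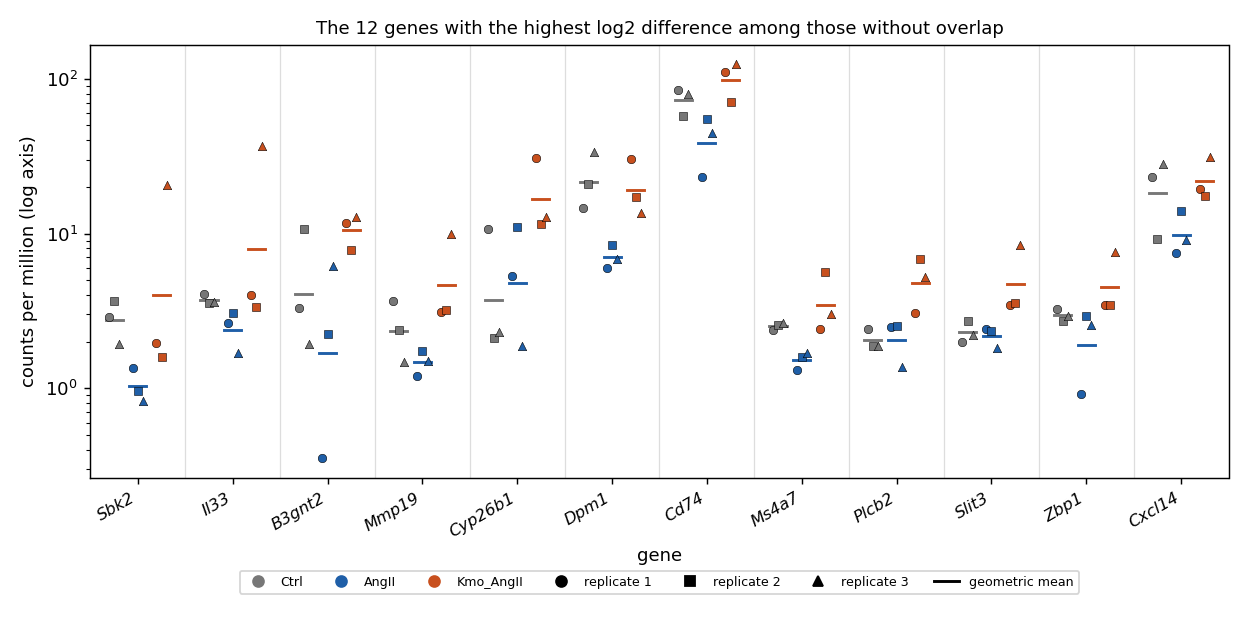
CPM on a log axis for the 12 genes with the highest log2 difference among separated genes, with 1 point per library (colour for the group, shape for the replicate number) and a bar at the geometric mean of each group. Sbk2 and Il33 reach 20.7 and 36.6 CPM in Kmo_AngII replicate 3, while Dpm1 and Cd74 are above AngII in all 3 Kmo_AngII libraries and in all 3 Ctrl libraries.

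Pfkfb2, the heart isoform of an enzyme that regulates glycolysis, stood at 128, 106 and 112 CPM in AngII. It stood at 70.6, 62.0 and 41.1 CPM in Kmo_AngII and at 72.1, 86.2 and 65.4 CPM in Ctrl. AngII libraries were all high and the other groups lay together below them. Its log2 difference was -0.99 (SE 0.25, interval -1.56 to -0.42), with an unadjusted p of 0.00292 in edgeR. Trp53i11, a gene induced by p53, stood at 42.6, 54.3 and 62.0 CPM in AngII, 30.4, 21.4 and 27.2 CPM in Kmo_AngII and 50.9, 37.0 and 30.6 CPM in Ctrl. Here Ctrl overlapped AngII and lay above Kmo_AngII, and the log2 difference was -1.01 (SE 0.26, interval -1.58 to -0.44). Ivns1abp, a Kelch protein that binds actin, was the most abundant of the 12, at 2420, 1634 and 1360 CPM in AngII and 794, 1128 and 861 CPM in Kmo_AngII. Cpeb3, which binds messenger RNA tails and restrains translation, stood at 225, 210 and 106 CPM in AngII and at 74.1, 66.3 and 78.7 CPM in Kmo_AngII. Both were separated from AngII, with log2 differences of -0.96 (SE 0.35) and -1.31 (SE 0.39).

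Zc3h11a, a zinc finger protein of messenger RNA export, had the lowest log2 difference, -3.07 (SE 1.09). It stood at 109, 10.9 and 17.8 CPM in AngII and at 5.30, 3.90 and 7.16 CPM in Kmo_AngII, and the difference was -1.40 without AngII replicate 1, which held the high value. Tnfrsf25, a death domain receptor of T cells, measured 5.69, 9.39 and 10.6 CPM in AngII and 3.08, 3.02 and 5.64 CPM in Kmo_AngII. Ucp3, a mitochondrial carrier of muscle, measured 25.6, 24.3 and 16.0 CPM in AngII and 15.3, 11.6 and 9.31 CPM in Kmo_AngII. The margin between the groups was small in both, at Kmo_AngII replicate 3 for Tnfrsf25 and at Kmo_AngII replicate 1 for Ucp3. Msc (log2 difference -1.16), Snx22 (-1.09) and Tmem267 (-1.24) completed the 12 lowest, all under 10 CPM in every library. Exons of B3gnt2, Cd74, Cpeb3, Dpm1, Ivns1abp, Mmp19, Msc, Pfkfb2, Snx22, Tgfb2, Tmem267, Vcam1 and Zc3h11a, and of Atp2a2, Myh7, Mybphl, Neb, Nppa and Thbs1 further on, share bases with another gene model in the GENCODE M21 annotation. The strand setting of the counting is not given in the sources used here, so their values may include reads of the neighbour.

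**Figure D5:**
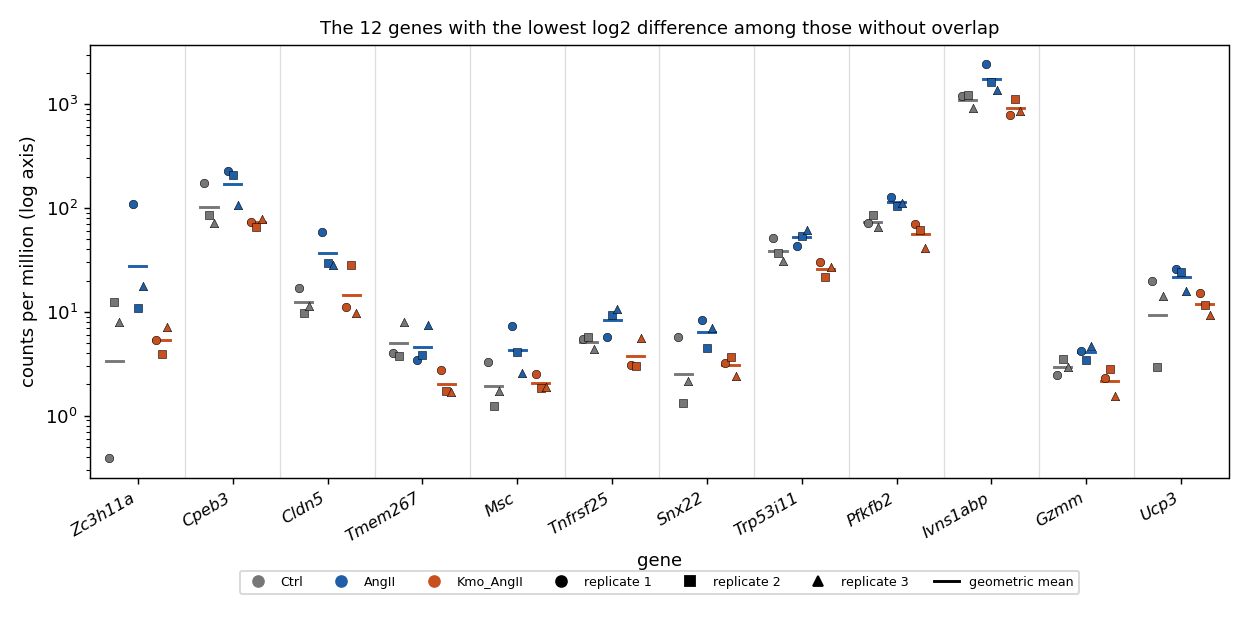
CPM on a log axis for the 12 genes with the lowest log2 difference among separated genes, drawn as in the plot of the highest genes. Pfkfb2 and Trp53i11 vary less within AngII than Zc3h11a, which reaches 109 CPM in AngII replicate 1 against 10.9 and 17.8 CPM in the other AngII libraries.

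Endothelial markers were lower in 17 of 20 tested genes, with 3 separated downwards and 0 upwards, beside 2.94% and 3.22% of all tested genes. Their median of -0.20 ranged from -0.39 to -0.12 when any AngII or Kmo_AngII library was left out. Cldn5, the tight junction claudin of endothelium, stood at 58.1, 29.6 and 28.4 CPM in AngII, 11.1, 28.1 and 9.82 CPM in Kmo_AngII and 17.0, 9.82 and 11.3 CPM in Ctrl. Kmo_AngII replicate 2 was close to the lower AngII libraries, and the log2 difference was -1.24 (SE 0.44). Icam2, the leukocyte adhesion gene separated downwards, which resting endothelium carries and which is not on the endothelial list, stood at 33.5, 24.5 and 25.9 CPM in AngII and at 18.2, 22.4 and 18.1 CPM in Kmo_AngII, a log2 difference of -0.51 (SE 0.25). Egfl7, a matrix protein secreted by endothelium, was separated by a log2 difference of -0.53 (SE 0.32), from 270, 200 and 194 CPM to 129, 180 and 150 CPM. Its exons overlap those of neighbouring genes. Tie1, an endothelial receptor kinase, was the third separated gene of the endothelial list, at 127, 143 and 134 CPM in AngII and 97.1, 118 and 114 CPM in Kmo_AngII, a log2 difference of -0.29 (SE 0.24). Red cell genes also had lower averages, through AngII replicates 1 and 2: 10 of 11 tested had a negative difference and 1 was separated. Their median of -2.96 was -1.66 without AngII replicate 1. Summed over the list, levels were 7460, 3017 and 170 CPM in AngII and 552, 538 and 390 CPM in Kmo_AngII. Ctrl stood at 7005, 569 and 537 CPM. The beta globin Hbb-bt stood at 1415, 388 and 22.2 CPM in AngII and at 89.6, 63.6 and 47.7 CPM in Kmo_AngII. Haemoglobin genes made up 0.449% ± 0.494 (SD, n = 3) of counts in AngII and 0.0441% ± 0.0152 in Kmo_AngII, with a two-sided exact permutation p of 0.4, where 0.1 is the smallest that 3 against 3 allows.

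Matrix genes leaned upwards through Kmo_AngII replicate 3. Of 39 tested collagens and matrix genes, 35 had a positive difference and 34 were highest in that library. Only 1 was separated, upwards, near the 3.22% of all tested genes, and the median was 0.69 with that library and 0.03 without it. Col1a1, the main chain of type I collagen, stood at 22.2, 34.04 and 41.0 CPM in AngII and at 48.8, 19.97 and 198 CPM in Kmo_AngII. Kmo_AngII replicate 2 was below all AngII libraries, replicate 1 slightly above them, and the log2 difference went from 1.45 (SE 0.68) to 0.09 without replicate 3. Fibroblast markers (17 of 18 higher, median 0.63) and myofibroblast markers (15 of 16 higher, median 0.78) had medians of 0.06 and 0.18 without it, and the myofibroblast median was 1.65 without AngII replicate 3. Acta2, the smooth muscle actin of myofibroblasts and vessel walls, was separated by a small margin, at 74.6, 51.7 and 73.2 CPM in AngII and 75.8, 83.6 and 86.6 CPM in Kmo_AngII, a log2 difference of 0.30 (SE 0.23) that was -0.0482 under scaling by library size. Timp1, an inhibitor of matrix proteases, measured 1.42, 1.65 and 2.31 CPM in AngII and 5.66, 1.66 and 14.9 CPM in Kmo_AngII. Thbs1, a matricellular protein that activates latent transforming growth factor beta, was separated by a small margin, at 4.96, 3.80 and 4.41 CPM in AngII and 6.83, 5.35 and 13.8 CPM in Kmo_AngII. Genes of the transforming growth factor beta and bone morphogenetic protein pathways were higher in 17 of 23, with 1 separated, Tgfb2, and a median of 0.32 that became 0.04 without replicate 3, 0.17 without replicate 1 and -0.05 under scaling by library size. Inhba, a subunit of activin, differed by 2.68 (SE 0.87) with all libraries and by 0.71 without replicate 3.

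Markers of atrial muscle, epicardium and, less evenly, fat had their highest averaged level in Kmo_AngII replicate 3. Of 11 tested atrial markers, 8 were highest there and 2 were separated; the median log2 difference of 1.80 became 0.48 without it and 3.37 without AngII replicate 3. The atrial myosin light chain Myl7 stood at 0.318, 0.416 and 0 CPM in AngII, 0.514, 0.854 and 469 CPM in Kmo_AngII and 0.567, 47.7 and 0.399 CPM in Ctrl. Sln, the atrial inhibitor of the calcium pump, followed the same libraries, with 289 CPM in Kmo_AngII replicate 3, 35.0 CPM in Ctrl replicate 2 and under 1 CPM in the other 7 libraries. The averaged level of ventricular markers was lowest in that library as well, at -1.14 log2 units, against -0.30 to 0.34 in AngII. Epicardial and mesothelial markers were highest there in 14 of 17, with a median of 1.64 that became -2.42 without it, and adipocyte markers in 6 of 10, with 3.04 and -0.20. Cfd, the adipocyte protease adipsin, stood at 17.2 CPM there and at 0.155 and 0.335 CPM in the other Kmo_AngII libraries. Summed over the adipocyte list, however, that library held 217 CPM, against 286 and 318 CPM in Kmo_AngII replicates 1 and 2. The sums were 237, 217 and 212 CPM in AngII and 238, 312 and 424 CPM in Ctrl. Platelet, Schwann and neuronal, and lymphatic markers also had their highest averaged level in Kmo_AngII replicate 3, at 2.19, 1.52 and 1.04 log2 units. They were highest there in 9 of 11, 9 of 11 and 6 of 7 tested genes. Their medians of 0.45, 0.30 and 0.25 became -0.61, -0.13 and -0.44 without that library. The lists of leukocytes shared this pattern to differing degrees. Macrophage markers were highest in that library in 18 of 26 genes and B cell markers in 7 of 12. Dendritic and class II genes were highest there in 6 of 15, T and NK markers in 5 of 22 and neutrophil markers in 0 of 13. Among all tested genes, 24.5% had their highest value of the AngII and Kmo_AngII libraries there. The part of these markers in any gene's difference was not tested, beyond the values given without that library.

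Markers of the hypertrophic response separated libraries within each group. Acta1, the skeletal actin re-expressed in enlarged hearts, stood at 11.3, 17.4 and 617 CPM in AngII and at 633, 39.6 and 12.98 CPM in Kmo_AngII. AngII replicate 3 and Kmo_AngII replicate 1 were high, and the log2 difference was 0.09 (SE 1.75, interval -3.80 to 3.97), with its sign changing when single libraries were left out. Nppa, atrial natriuretic peptide, measured 107, 48.0 and 808 CPM in AngII and 1185, 121 and 1101 CPM in Kmo_AngII. Nppb, brain natriuretic peptide, measured 35.9, 20.6 and 286 CPM in AngII and 533, 96.7 and 23.1 CPM in Kmo_AngII. Their log2 differences were 1.32 (SE 1.15) and 0.93 (SE 1.22), and the groups overlapped. Ctrl libraries were not the lowest, with Acta1 at 11.5, 686 and 678 CPM. Within AngII and Ctrl, Acta1 was low in every library titled WC and high in every library titled WA. What these letters mark was not tested. Over 23 tested hypertrophy genes, 22 had a positive difference and 3 were separated upwards, beside 54.5% and 3.22% of all tested genes. Their median of 0.55 ranged from 0.07 without Kmo_AngII replicate 1 to 1.51 without AngII replicate 3. Of the 3 separated, Myl7 and the myosin-binding protein gene Mybphl were high in Kmo_AngII replicate 3, at 469 and 53.1 CPM. The other was Fhl1, a stretch-responsive LIM protein, at 38.2, 47.7 and 61.2 CPM in AngII and 101, 61.7 and 90.9 CPM in Kmo_AngII. Myh7, the slow myosin heavy chain, was at 591, 869 and 984 CPM in AngII and 1290, 1114 and 732 CPM in Kmo_AngII, a log2 difference of 0.36 (SE 0.38).

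Genes that the series title names differed by less than their spread. Josd2, a deubiquitinase of the Josephin family, stood at 44.8, 62.8 and 61.3 CPM in AngII and at 54.7, 62.3 and 31.8 CPM in Kmo_AngII. Its log2 difference was -0.18 (SE 0.27), and the 95% interval of -0.79 to 0.42 leaves out a doubling and a halving. Atp2a2, which encodes the calcium pump SERCA2a, stood at 1699, 1098 and 2570 CPM in AngII and at 4018, 1310 and 1030 CPM in Kmo_AngII, a log2 difference of 0.24 (SE 0.61, interval -1.10 to 1.59). Its interval is too wide to leave out a change of either size. Calcium handling genes were higher in 18 of 25 with a median of 0.10, and sarcomere genes in 23 of 28 with a median of 0.17; both medians turned negative under scaling by library size and without Kmo_AngII replicate 1. Neb, the thin filament protein nebulin, was the separated sarcomere gene, at 7.80, 9.36 and 5.80 CPM in AngII and 10.3, 15.8 and 11.2 CPM in Kmo_AngII, a log2 difference of 0.70 (SE 0.28). Hcn4, the pacemaker channel, was separated, at 3.73, 4.78 and 4.999 CPM in AngII and 8.37, 6.21 and 7.87 CPM in Kmo_AngII. Its log2 difference was 0.73 (SE 0.27), and it was the only separated gene of 25 sodium and potassium channel genes, whose median was 0.01. Both 1 of 28 sarcomere genes and 1 of 25 channel genes are near the 3.22% of all tested genes separated upwards.

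Kmo itself was scarce in all libraries. It stood at 0.247, 1.16 and 1.26 CPM in AngII, 0.299, 0.473 and 0.848 CPM in Kmo_AngII and 0.885, 1.001 and 0.886 CPM in Ctrl. The groups overlapped, with AngII replicate 1 the lowest of the 9 libraries, and the log2 difference was -0.73 (SE 0.62, interval -2.10 to 0.64). Of 16 tested genes of the kynurenine pathway, 10 were higher and 1 was separated upwards, beside 54.5% and 3.22% of all tested genes. The list median was 0.11. The 1 separated gene was Tdo2, which opens the pathway by oxidising tryptophan, at 0.577, 0.550 and 0.297 CPM in AngII and 0.693, 0.823 and 1.22 CPM in Kmo_AngII. Kyat1, an aminotransferase that makes kynurenic acid, stood at 14.3, 17.9 and 15.0 CPM in AngII and at 14.5, 13.8 and 12.9 CPM in Kmo_AngII.

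Nuclear genes of oxidative phosphorylation were higher in 15 of 43 (median -0.05), fatty acid oxidation genes in 21 of 35 (0.06) and glycolysis genes in 17 of 25 (0.06). The 3 lists together held 2 separated genes, Pfkfb2 and Ucp3, both downwards. Among all tested genes, 54.5% were higher and 2.94% were separated downwards. Medians of the 3 lists ranged widely with the library left out. For oxidative phosphorylation the range was from -0.79 without Kmo_AngII replicate 1 to 0.31 without AngII replicate 3. Mitochondrially encoded genes were higher in 13 of 13, with 0 separated and a median of 0.88 that was 0.28 without Kmo_AngII replicate 3. They made up 33.9% ± 4.87 (SD, n = 3) of counts in AngII, 42.5% ± 12.5 in Kmo_AngII and 48.1% ± 4.62 in Ctrl, and Kmo_AngII against AngII gave a two-sided exact permutation p of 0.3. Kmo_AngII replicate 3 had the highest share, 55.5%, and replicate 1 the share of 30.5%. Heat shock genes were higher in 6 of 19 (median -0.17), unfolded protein response genes in 8 of 23 (-0.08), Josephin family and related deubiquitinase genes in 10 of 15 (0.04) and muscle ubiquitin ligases in 8 of 15 (0.01), with 0 separated in all 4 lists. Antioxidant genes were higher in 18 of 25 with 0 separated and a median of 0.14. Hmox1 of that list, which breaks down haem, stood at 7.22, 4.43 and 5.21 CPM in AngII and at 5.72, 17.7 and 11.9 CPM in Kmo_AngII. Cell cycle genes were higher in 14 of 27, circadian genes in 10 of 18, cytosolic ribosomal protein genes in 16 of 32 and immediate-early genes in 15 of 24, and the last had the largest median of these 4 lists, 0.15.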

How the data were processed

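Hearts of 9 libraries were sequenced after poly(A) selection, per the labels' protocols. The deposited table holds whole-number counts per Ensembl gene, not scaled for depth or length, per the file headers. Bowtie 0.12.2, HISAT2 2.0, StringTie 1.3.0 and the build mm8 come from the submitters' processing notes, which give no role or order. For the counting step, the annotation and the strand setting, nothing is given in the sources used here. Gene identifiers matched symbols for 55141 of 55401 genes, and no coordinates of genes are printed apart from RefSeq promoters.

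One edgeR 4.0.16 fit in R 4.3.3 held all 9 libraries, so that the groups shared a spread: TMM scaling, the filter of filterByExpr, robust quasi-likelihood F test, contrast Kmo_AngII minus AngII, and Benjamini-Hochberg adjustment over 19091 genes with a threshold of 0.05. The standard error is the log2 difference divided by the root of F. CPM uses TMM library sizes. A gene was called separated where all 3 CPM of a group lay beyond all 3 of the other. Shares were compared by exact permutation tests. Replicate numbers follow the sample order and pair nothing.

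The comparison, the 42 gene lists (832 genes, 806 tested) and the naming rule were chosen with earlier results of these data known. The rule takes 8 index genes (Kmo, Josd2, Atp2a2, Nppa, Nppb, Acta1, Myh7 and Col1a1). It takes the 12 highest and 12 lowest log2 differences and the 10 smallest p among separated genes whose mean log2 CPM reaches 1 and whose symbol is an established name. It also takes the 3 members of each list with the smallest p and genes called by any other tool or setting, and the text gives part of them. Gcsam, Fbxo39, Hcn3 and Il9r, and list members beyond the 3, were chosen after their values were seen. Alternatives were other scalings, filters and samples, limma 3.58.1 voom with and without quality weights, DESeq2 1.42.0, and leaving out each library. The fits were tested on simulated data.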

Additional observations from a re-analysis of the deposited data

How the results depend on the processing

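Calls stayed at 0 under 15 of the 19 alternatives. DESeq2's Wald test called 3 genes of 19036 with an adjusted p (0.0158%): 1010001B22Rik, Gm47204 and Gm49394. Keeping only AngII replicates 1 and 2 and Kmo_AngII replicates 2 and 3, chosen by title, called 1 gene, Gm10774. Leaving out 1 library at a time gave between 0 and 1 calls, Lin52 without AngII replicate 2 and Gm10774 without AngII replicate 3. Unadjusted p-values under 0.05 ranged from 286 under a filter that asks for 1 CPM in 3 libraries to 974 without Kmo_AngII replicate 1, against 412. The separated genes above and below numbered 176 and 2303 under library size scaling, and 377 and 360 under the 1 CPM filter, which tests fewer genes. The 28 genes of largest difference or smallest p kept their direction under all 19 alternatives. They were chosen among separated genes, so leaving out a library could hardly reverse them, and their kept direction is no support. Of 86 genes followed, 6 changed sign under at least 1. Of the 42 list medians, 26 moved by more than the spread between replicates under at least 1 alternative, 14 of them under library size scaling and 7 without Kmo_AngII replicate 3. Leaving out single libraries took Acta1 from -3.04 to 3.99, Atp2a2 from -0.62 to 0.60, Nppb from -0.93 to 2.95, Josd2 from -0.38 to 0.0537 and S100a9 from -2.39 to 2.92. Under library size scaling Acta1 was -0.0528 and Acta2 was -0.0482, and S100a9 was -0.0708 with limma-voom. Atp2a2 was -0.19 with quality weights and -0.26 with the libraries chosen by title. The causes were not tested. No paired analysis was possible because the labels carry no replicate number that the groups share. Precision was lowest for genes with few counts, where the median standard error was 0.84.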

Other observations

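Some genes had no count in 1 of the groups. The folds in this paragraph use library size as the only scaling, with a library at 0 set to a limit of 3 counts. TMM factors were higher in every AngII library than in any Kmo_AngII library. On the CPM scale used elsewhere, the folds of genes lower in Kmo_AngII would therefore be smaller. Gm47204 had 100, 77 and 19 counts in AngII, 0 in all Kmo_AngII libraries and 25, 0 and 27 in Ctrl, at least 23.7-fold lower. 1010001B22Rik had 25, 40 and 30 counts in AngII, 0 in Kmo_AngII and 33, 4 and 22 in Ctrl, at least 11.4-fold lower. Both are transcripts without an established name. Hcn3, a channel of the pacemaker family, had 14, 11 and 17 counts in AngII, 0 in Kmo_AngII and 6, 0 and 0 in Ctrl, at least 4.95-fold lower. Fbxo39, a substrate adaptor of ubiquitin ligases, had 11, 14 and 11 counts in AngII and 0 in Kmo_AngII, at least 4.31-fold lower. Il9r, the receptor of interleukin 9, had 12, 10 and 13 counts in AngII and 0 in Kmo_AngII, at least 4.14-fold lower. Gcsam, a signalling protein of germinal centre B cells, went the other way, with 16, 16 and 15 counts in Kmo_AngII and 0 in the 6 AngII and Ctrl libraries, at least 4.87-fold higher than in AngII. These are the 6 genes with 0 in every library of 1 group and at least 10 counts in each library of the other.

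Lin52, a subunit of the DREAM complex that represses cell cycle genes, stood at 0.212, 6.79 and 0.186 CPM in AngII and at 8.97, 5.44 and 4.93 CPM in Kmo_AngII. AngII replicate 2 lay among the Kmo_AngII values and the other AngII libraries far below them. Gm10774, whose exons overlap those of Usp50, was near 0 in AngII replicates 1 and 2 and at 2.51 CPM in replicate 3, against 1.67, 1.83 and 1.64 CPM in Kmo_AngII. Gm49394, whose exons overlap those of Igf2, had 0 counts in all Kmo_AngII libraries and in AngII replicates 2 and 3.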
